A study of Danio rerio with 9 samples.

Results

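The 10 genes described here were 5 markers of tumour macrophages (mpeg1.1, mfap4, marco, lgals3bpb and spi1b), the 3 chains of complement C1q (c1qa, c1qb and c1qc) and 2 short granulins (grn1 and grn2). They were picked by name and function, with earlier results of these data known. They are 10 of the 30649 gene names counted in 9 zebrafish melanomas. All fish were p53-/- and Na-/- (names as in the labels) and carried mitfa:BRAFV600E, which drives the BRAF oncogene from the promoter of the pigment cell gene mitfa. As embryos at the zygote stage they had received Tol2 transposase RNA and a MiniCoopR vector, with CDK13 R860Q in 5 tumours (R157 to R161) and with EGFP in 4 control tumours (R162 to R165), whose CDK13 status is given as wild-type. MiniCoopR carries a mitfa minigene that restores pigment cells in Na-/- fish, so that the restored cells also carry the added gene. No tumours with wild-type human CDK13 were among the samples, ages are not given in the labels, and each library came from 1 dissected melanoma.

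Macrophages are phagocytes that enter tumours from the blood or reside in the tissue, and they clear dying cells and display antigen. In zebrafish, mpeg1.1 (a perforin-like protein of the phagosome) and mfap4 (a fibrinogen-domain protein) are the genes most used to mark them, although mpeg1.1 is also expressed by B lymphocytes of adult fish. Macrophages are a main source of C1q, whose chains assemble into the particle that binds immune complexes and cell debris and starts the classical complement pathway. In mammals, granulins are cysteine-rich growth factors cut from progranulin, which macrophages express. The short granulins grn1 and grn2 are rows separate from the long progranulin genes, and which cells expressed them was not tested. In RNA from whole tumours, fewer cells of a type and less RNA per cell cannot be told apart.

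Libraries held between 5518472 and 15120176 counted reads. Levels are normalised counts per 1000000 reads (CPM), scaled between libraries by TMM, which evens out the bulk of genes. The transgene's row, hCDK13, held 114 to 7239 reads in the R860Q tumours and 0 to 5 in the EGFP tumours, in the order of the labels. Skeletal muscle genes set R860Q R158, R159 and R160 and EGFP R162 apart, with summed levels up to 5562 CPM in R860Q and 1405 CPM in EGFP tumours, and down to 27.3 and 11.6 CPM in the rest. Of these genes 21 were tested, and all had a log2 fold change above 0 (median 2.48, and 7.42 without EGFP R162). Over the 9 tumours edgeR called 0 of the 21, and 0 had an unadjusted p under 0.05. Of all genes tested 52.8% were on the lower side. Separate tumours are named in the labels, but not separate fish, and a p-value here speaks of the spread among these tumours. All were distinct libraries (lowest chi-square per degree of freedom 64.2 in 16 pairs of tumours within a group).

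Reads of all 10 genes were found in every tumour, as were those of csf1ra and irf8, the macrophage growth factor receptor and a macrophage transcription factor. The defining macrophage markers were thus present in every tumour, but presence alone does not tell macrophages from other cells. The neutrophil markers mpx (19 to 216 reads), lyz (8 to 103) and npsn (26 to 209) had reads in every tumour too. The genes did not behave as a single group, however. The C1q chains and marco were high and low in the same tumours, mpeg1.1 and mfap4 each had an order of their own, and grn1 was either abundant or nearly absent.

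Between the groups, 8 of the 9 genes that had enough reads to be tested lay on the lower side in R860Q tumours, with a median log2 fold change of -0.80 against -0.03 over all 15169 genes tested, of which 52.8% were on that side. The 9 are not separate cases, since several of them rose and fell together over the tumours, as given below. They were also chosen with earlier results of these data known, so their counts beside all genes are description only. After Benjamini-Hochberg adjustment over all genes, edgeR's quasi-likelihood fit called 0 of the 9 at 0.05, and 0% of all genes (931 genes had an unadjusted p under 0.05, and DESeq2 called 20 higher and 48 lower). At an unadjusted p under 0.05, lgals3bpb and grn2 were on the lower side, 2 of 9 beside 4.15% of all genes. That count was 6 without R860Q R161, 5 without EGFP R163, 4 without EGFP R162 and 1 without EGFP R164. The share of all genes with a tumour left out is not given here, so these counts are not set against it. DESeq2 called lgals3bpb lower, 1 of 9 beside 0.316% of all genes, and limma voom called 0. The median was -0.51 without EGFP R165, a fit for which the median of all genes is not given here. Of the 10 genes grn1 did not pass the filter on low counts, which needs enough reads in at least 4 tumours.

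**Figure D1:**
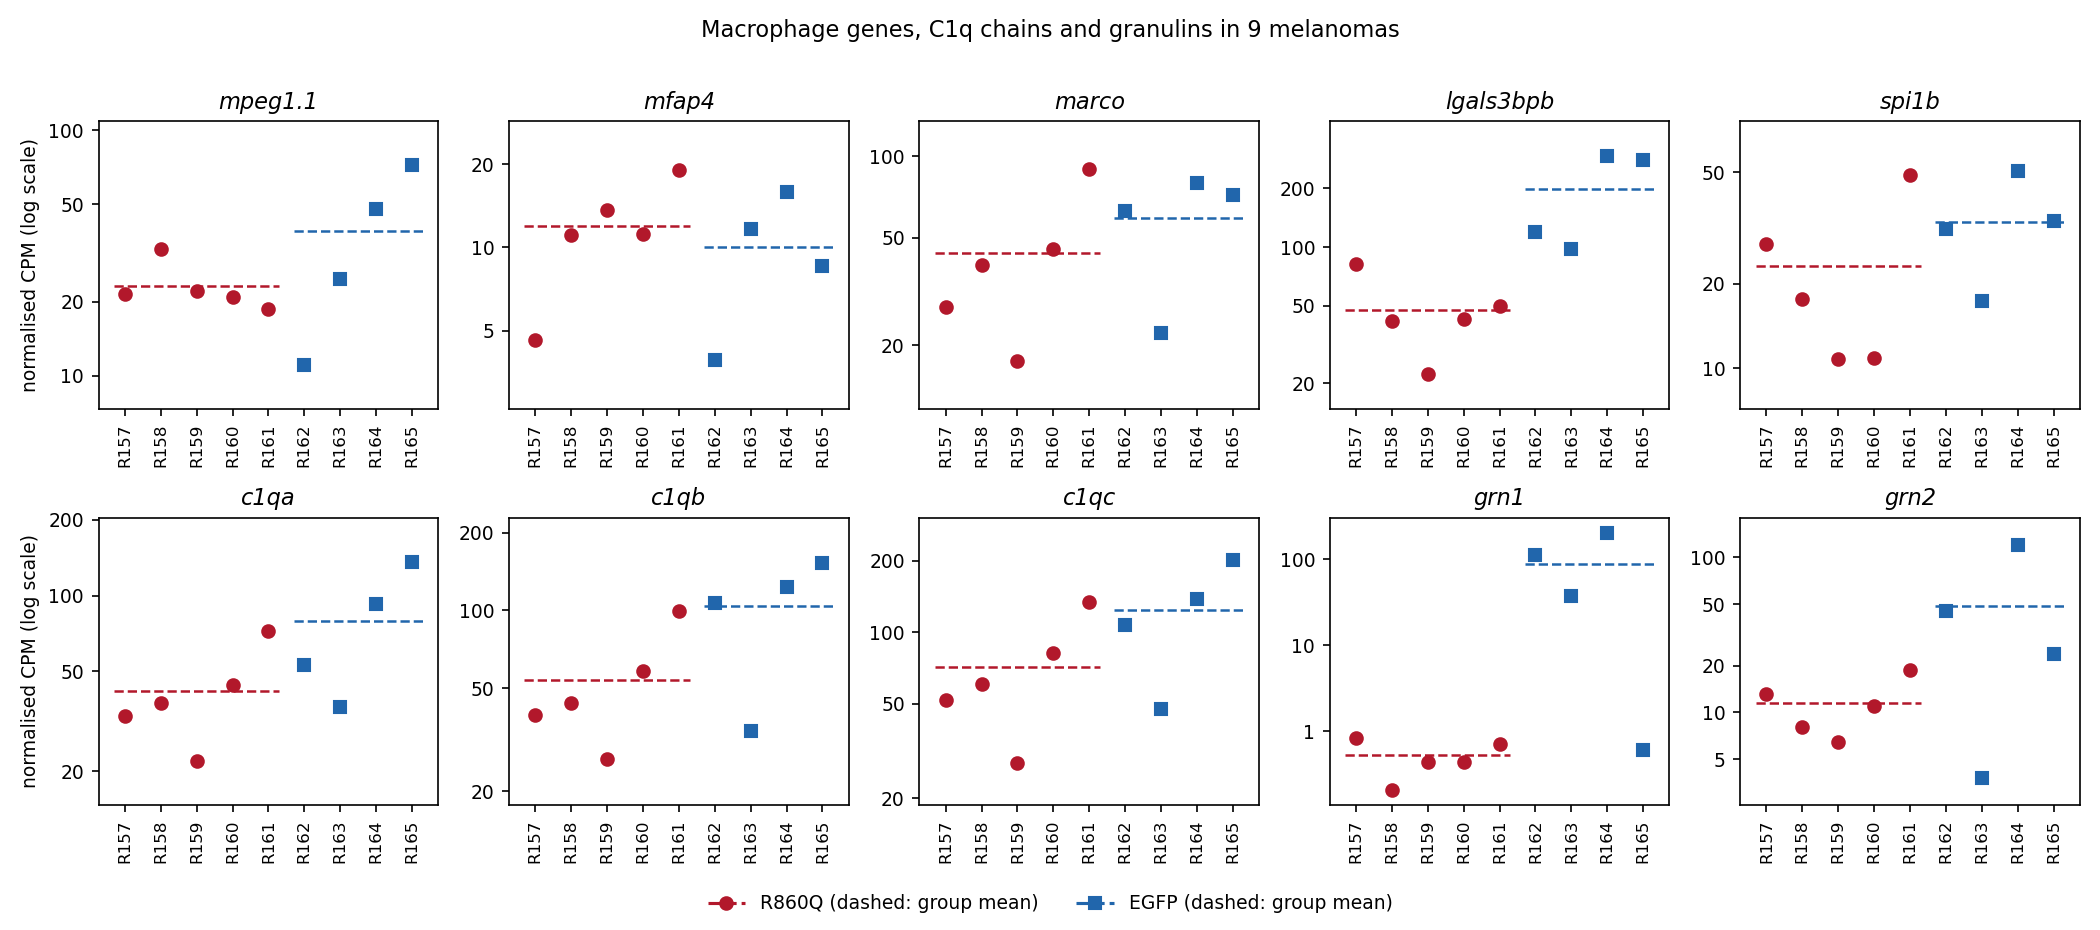
Normalised CPM (log axis) of each of the 10 genes in each tumour, with R860Q tumours as red circles, EGFP tumours as blue squares and dashed lines at the group means. Only lgals3bpb has no overlap between the groups, while grn1 is at 36.9 CPM or more in EGFP R162, R163 and R164 and at 0.820 CPM or less in the other tumours.

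Of the macrophage markers, lgals3bpb, which codes for a secreted galectin-3-binding glycoprotein, stood furthest apart between the groups. It was at 82.0, 41.6, 22.1, 42.6 and 50.04 CPM in R860Q R157 to R161 and at 119, 98.2, 295 and 279 CPM in EGFP R162 to R165. All R860Q tumours were below all EGFP tumours, which was so for 0.804% of the genes tested, and the nearest were R860Q R157 and EGFP R163. The log2 fold change was -2.05 ± 0.45 (SE), with an edgeR adjusted p of 0.469 and a DESeq2 adjusted p of 0.00470. Leaving out any single tumour kept it between -2.34 and -1.79, with edgeR adjusted p between 0.166 and 0.9996. A copy by name, lgals3bpa, was at 2.45 ± 1.58 CPM in R860Q and 6.95 ± 4.58 CPM in EGFP tumours (SD, n = 5 and 4). Its groups overlapped (log2 fold change -1.52 ± 0.59 SE, edgeR adjusted p = 0.759). RefSeq's table names lgals3bpb as lgals3bp.1, and reads may be shared between such copies.

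The perforin-like mpeg1.1 was at 21.5, 32.9, 22.1, 20.9 and 18.6 CPM in R860Q R157 to R161. In EGFP R162 to R165 it was at 11.01, 24.6, 47.9 and 72.4 CPM. The R860Q tumours were thus close to each other, while the EGFP tumours held both the lowest level and the 2 highest. The log2 fold change was -0.75 ± 0.45 (SE, edgeR adjusted p = 0.912), and -0.27 without EGFP R165. A neighbouring copy in name, mpeg1.2, was at 9.09 ± 3.67 CPM in R860Q and 13.5 ± 6.70 CPM in EGFP tumours (SD, n = 5 and 4), and reads may be shared between such copies.

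The scavenger receptor marco, which takes up bacteria and modified lipoproteins, was at 27.6, 39.7, 17.5, 45.4 and 89.7 CPM in R860Q R157 to R161. It reached 62.9, 22.3, 79.5 and 71.8 CPM in EGFP R162 to R165. The groups overlapped over nearly their whole range, since the tumour with the most marco was R860Q R161 and EGFP R163 was among the lowest (log2 fold change -0.43 ± 0.49 SE, edgeR adjusted p = 0.949). The difference was -0.86 without R860Q R161, -0.70 without EGFP R163, -0.25 without EGFP R164 and -0.22 without R860Q R159.

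The ETS factor spi1b (PU.1), which directs blood progenitors to the myeloid fate, was at 27.8, 17.7, 10.8, 10.9 and 48.9 CPM in R860Q R157 to R161 and at 31.3, 17.4, 50.5 and 33.5 CPM in EGFP R162 to R165. It was highest in EGFP R164 and R860Q R161 and lowest in R860Q R159 and R160 (log2 fold change -0.51 ± 0.48 SE, edgeR adjusted p = 0.941). Without R860Q R161 the difference was -0.97, and without EGFP R164 it was -0.23.

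Expression of mfap4 was low, at 4.62, 11.09, 13.7, 11.2 and 19.05 CPM in R860Q R157 to R161. In EGFP R162 to R165 it was 3.91, 11.6, 15.9 and 8.58 CPM. It was the gene of the set that lay on the higher side in R860Q tumours, at 0.24 ± 0.45 (SE, edgeR adjusted p = 0.979), and this side turned with limma voom (-0.15) and without EGFP R162 (-0.013). RefSeq's table of GRCz12tu, a later build than the one counted, holds 13 protein-coding genes named mfap4 with a number, so reads of this row may be shared with close copies.

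**Figure D2:**
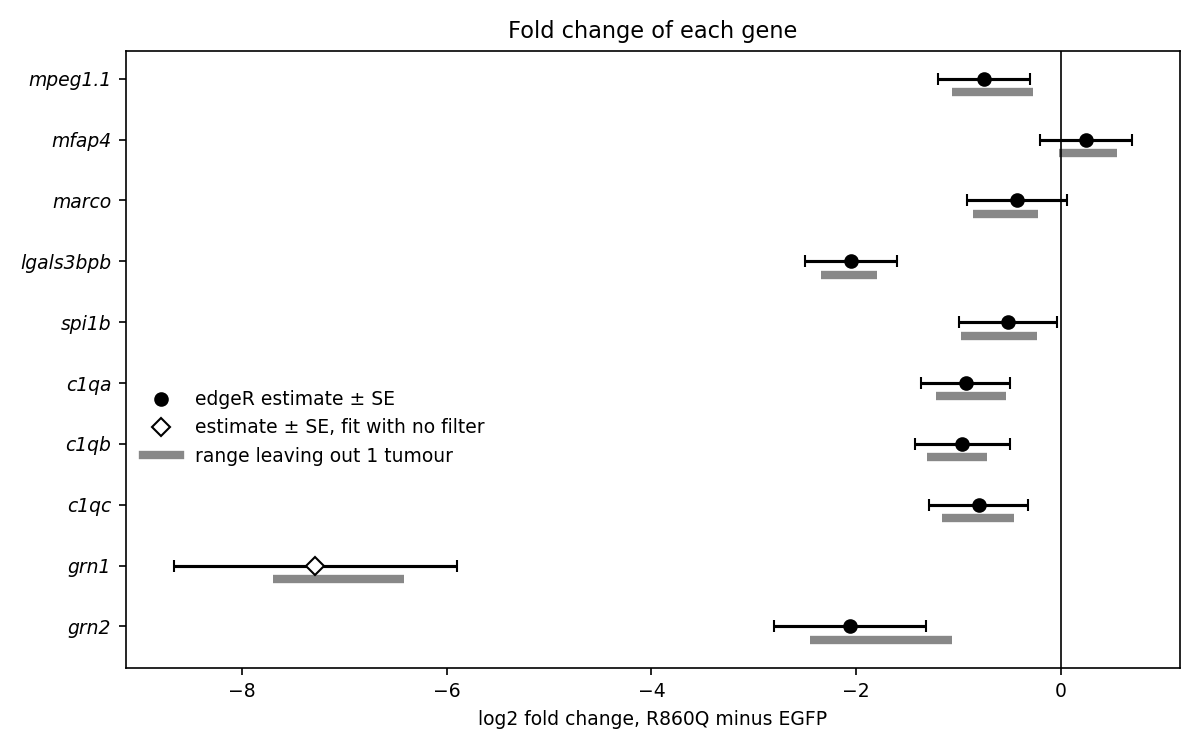
The log2 fold change (R860Q minus EGFP) of each gene with its standard error, and in grey the range of estimates when each tumour in turn was left out. The points run from 0.24 for mfap4 to -2.06 for grn2, with grn1 at -7.29 from the fit with no filter (open diamond).

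The C1q chains, which are needed together to build the C1q particle, varied together from tumour to tumour. The A chain gene c1qa was at 33.0, 37.4, 22.002, 44.2 and 72.2 CPM in R860Q R157 to R161 and at 52.8, 35.9, 92.8 and 136 CPM in EGFP R162 to R165. The B chain gene c1qb was at 39.4, 43.9, 26.5, 58.3 and 99.9 CPM in the same R860Q tumours and at 107, 34.0, 124 and 152 CPM in the EGFP tumours. For c1qc, the C chain gene, these levels were 51.7, 60.6, 28.1, 81.4 and 134 CPM and 108, 47.4, 139 and 202 CPM. Each chain was lowest in R860Q R159 and highest in EGFP R165, and EGFP R163 lay inside the range of the R860Q tumours for each.

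The log2 fold changes were -0.93 ± 0.43 for c1qa, -0.96 ± 0.47 for c1qb and -0.80 ± 0.49 for c1qc (SE), with edgeR adjusted p of 0.818, 0.830 and 0.913. Each was closest to 0 without EGFP R165 (-0.54, -0.72 and -0.46) and farthest from it without R860Q R161 (-1.22, -1.31 and -1.16). In reads summed over the chains, c1qa took 25.9% ± 2.09 in R860Q and 26.1% ± 4.58 in EGFP tumours, c1qb 32.3% ± 1.41 and 33.7% ± 4.84, and c1qc 41.8% ± 3.04 and 40.2% ± 0.902 (SD, n = 5 and 4). These shares are of reads and are not corrected for transcript length. They varied little beside the summed level, which ran from 76.6 CPM in R860Q R159 to 491 CPM in EGFP R165. In RefSeq's table c1qb, c1qc and c1qa are next to each other, with no other protein-coding gene between them.

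Of the granulins, grn1 was present at high level in 3 of the 9 tumours. It gave 11, 2, 3, 3 and 5 reads in R860Q R157 to R161 (0.820, 0.207, 0.437, 0.436 and 0.711 CPM). EGFP R162, R163 and R164 gave 455, 448 and 1385 reads (111, 36.9 and 202 CPM), whereas EGFP R165, the deepest library, gave 11 (0.601 CPM). The levels formed 2 separate clusters with nothing between 0.820 and 36.9 CPM, and EGFP R165 lay with the R860Q tumours. In a fit with no filter on low counts, which let grn1 be tested, its log2 fold change was -7.29 ± 1.38 (SE), with an edgeR adjusted p of 0.441. DESeq2 without the filter gave -7.37 with an adjusted p of 3.32e-10. That value rests on the 3 EGFP tumours in which grn1 is abundant, while EGFP R165 overlaps the R860Q tumours, and nothing is drawn from it. Without EGFP R165 the edgeR adjusted p in the fit with no filter was 2.20e-04. This leaves out the 1 EGFP tumour with little grn1, and nothing is drawn from it either.

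Levels of grn2 were 13.1, 8.09, 6.41, 11.05 and 18.9 CPM in R860Q R157 to R161 and 45.0, 3.79, 120.2 and 23.9 CPM in EGFP R162 to R165. The lowest tumour was EGFP R163, in which grn1 was abundant, and the other EGFP tumours were above all R860Q tumours. The log2 fold change was -2.06 ± 0.74 (SE, edgeR adjusted p = 0.747, DESeq2 adjusted p = 0.237). It was -1.06 without EGFP R164, the tumour with the most of both granulins. The long progranulin genes, which are separate rows, were at 95.8 ± 80.7 CPM in R860Q and 129.9 ± 49.5 CPM in EGFP tumours for grna (log2 fold change -0.44 ± 0.57 SE) and at 43.8 ± 11.9 and 50.1 ± 18.1 CPM for grnb (-0.20 ± 0.32 SE; SD, n = 5 and 4, edgeR adjusted p = 0.962 and 0.979).

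RefSeq's table names grn1 and grn2 as grna.1 and grna.2, places them side by side, and lists a long noncoding RNA, grnas, that overlaps both. The row grnas was at 3.36, 1.97, 1.60, 2.47 and 4.55 CPM in R860Q R157 to R161 and at 17.9, 6.26, 43.7 and 4.10 CPM in EGFP R162 to R165. Like grn1, it was highest in EGFP R164 and R162, and it was low in EGFP R165. Whether HTSeq used the strand of a read is not stated in the labels, and reads of overlapping rows may therefore be shared.

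Among the 12538 tested genes with a gene name, those most like grn1 over the 9 tumours by Pearson correlation of log2 CPM were dennd2db, a DENN-domain gene (0.93), grnas (0.92), the proteasome subunits psmb12 (0.90) and psmb13a (0.89), and the peptide transporter tap2a (0.89), ranked after the values of grn1 had been seen. The last 3 serve antigen display by MHC class I and belong to the core MHC region of zebrafish. Their levels in EGFP R162, R163 and R164 were 19.3, 7.17 and 17.3 CPM for psmb12, 19.6, 4.45 and 15.1 CPM for psmb13a and 24.0, 11.04 and 32.9 CPM for tap2a. No reads of them were counted in EGFP R165, which allows up to 0.164 CPM (3 reads, counting error only), nor in R860Q R157 to R160. R860Q R161 departed from the grn1 pattern, with 3.98, 3.70 and 6.40 CPM of these genes beside 0.711 CPM of grn1. Since the values of grn1 form 2 clusters, each r with it largely sets EGFP R162, R163 and R164 against the other tumours. The levels of dennd2db spanned only 1.28 to 3.49 CPM (9 to 31 reads), without the separate clusters of grn1. In RefSeq, psmb12, psmb13a, tap2a and grnas are on chromosome 19, as is grn1, while dennd2db is on chromosome 22. That is 4 of the 5 genes most like grn1, beside 4.271% of the ranked genes found in RefSeq's table. These 4 are not separate cases. The row grnas overlaps grn1 and may share its reads. The other 3 belong to the same core MHC region and were without reads in the same tumours. Nothing is therefore drawn from this count.

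**Figure D3:**
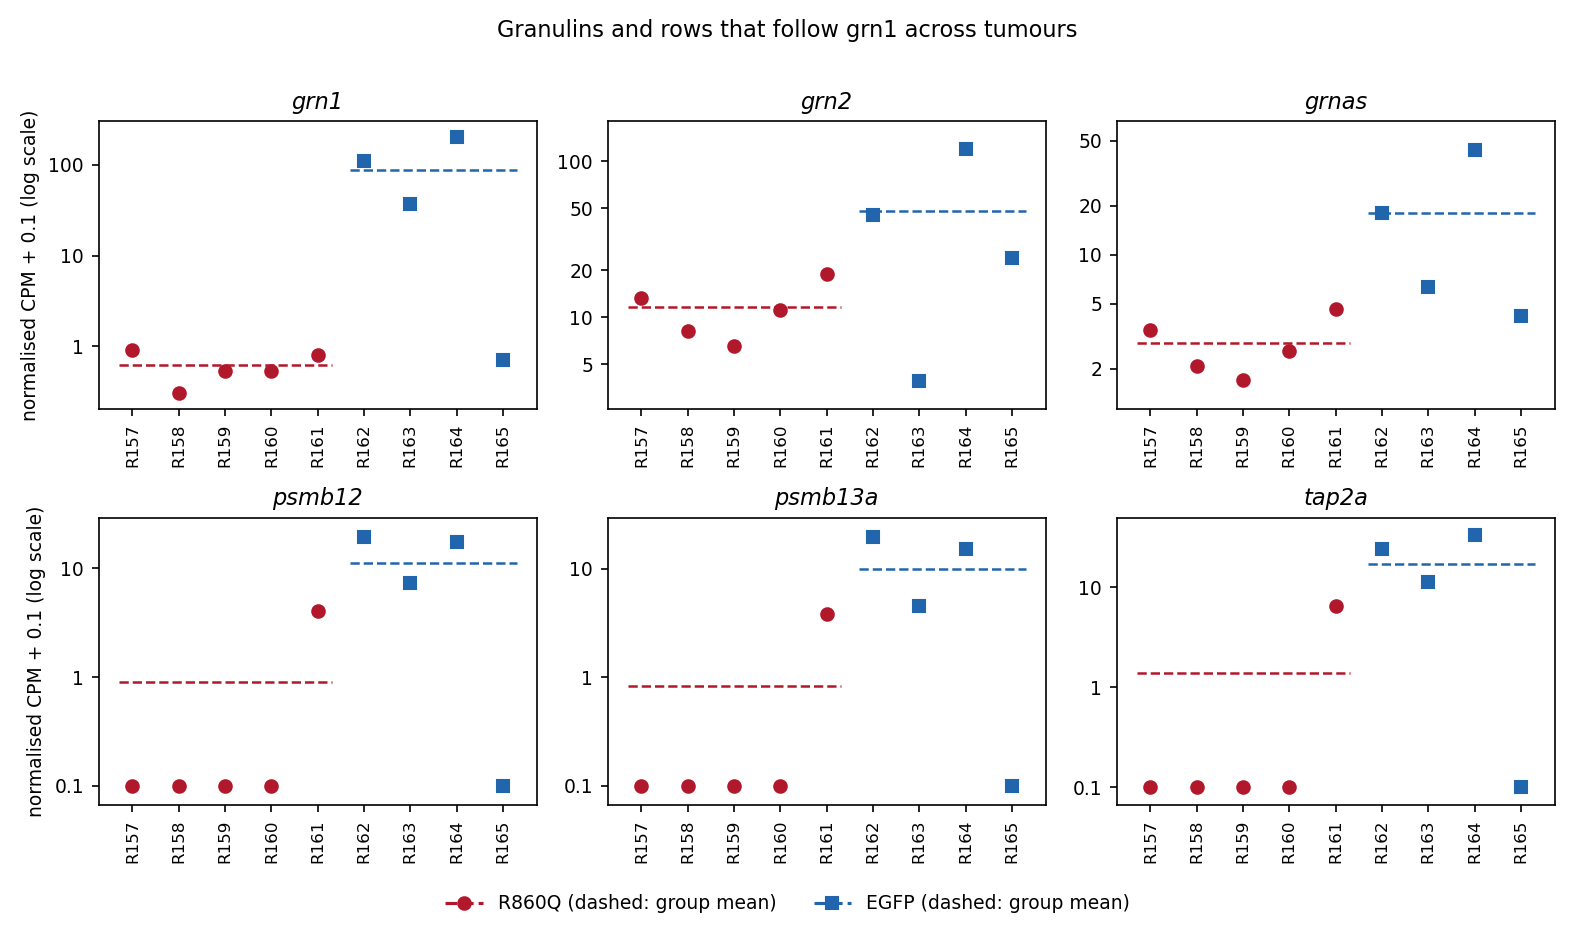
Normalised CPM plus 0.1 (log axis) of grn1, grn2, the overlapping row grnas, and psmb12, psmb13a and tap2a in each tumour, R860Q as red circles and EGFP as blue squares, with dashed lines at the group means. EGFP R162, R163 and R164 are high in grn1 and in the 3 antigen-processing genes, EGFP R165 is low in all 4, and grn2 is lowest in EGFP R163.

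The tumours were next compared by how the genes varied together, over all 9 tumours and then with each value centred on the mean of its group, which was added after the results over all tumours had been seen. The other genes were first set against mpeg1.1, the usual macrophage marker. Pearson r of log2 CPM with mpeg1.1 ran from 0.19 for grn2 to 0.57 for c1qa, and Spearman rho from -0.03 for marco to 0.30 for lgals3bpb. None passed an exact permutation test of the pairings (adjusted over 9 relations, p from 0.608 to 0.700 for r and 0.982 for rho). Centred within groups r was 0.06 for grn2 to 0.54 for lgals3bpb, with an adjusted exact permutation p of 0.842 or more. EGFP R164 and R165 were farthest from the median of mpeg1.1. Without them r was negative for marco, lgals3bpb, spi1b, the C1q chains and grn2 (-0.82 to -0.44) and 0.51 for mfap4. None of these passed either (exact permutation p adjusted over 9 relations, 0.311 to 0.319), so no inverse relation is drawn from them. The positive values of the genes that turned negative thus rested on EGFP R164 and R165. No r with mpeg1.1 is given for grn1, whose values fall in separate clusters.

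Between the 9 genes other than grn1, 36 pairs were then compared, a choice made after the first result. The C1q chains correlated with each other at r = 0.95 to 0.98 and rho = 0.97 to 0.98 (exact permutation p, adjusted over 36 pairs, 4.46e-04 to 4.63e-04). The scavenger receptor marco followed them, with r = 0.95 to c1qc, 0.95 to c1qb and 0.88 to c1qa (adjusted exact permutation p = 0.00119, 0.00210 and 0.0116; rho = 0.93, 0.88 and 0.92). Also past the threshold were c1qb with grn2 (r = 0.82, rho = 0.88, adjusted exact permutation p = 0.0243), lgals3bpb with c1qa (r = 0.79, rho = 0.68) and marco with grn2 (r = 0.78, rho = 0.82; adjusted exact permutation p = 0.0494 for both). Without the pair of tumours farthest from the median of the first gene of a pair, the adjusted p of the C1q pairs and of c1qb with grn2 was 0.0161 and that of marco with c1qc 0.0486, and the other 4 did not pass (0.0536 to 0.266). For rho the adjusted exact permutation p was 8.93e-04 to 0.00198 between the C1q chains, 0.00675 to 0.0158 for marco with them, 0.0158 for c1qb with grn2, 0.0323 for marco with grn2 and 0.0953, past no threshold, for lgals3bpb with c1qa. By rho 7 further pairs passed, which were spi1b with marco, with each C1q chain and with grn2, and grn2 with c1qa and with c1qc (rho = 0.78 to 0.87, adjusted exact permutation p = 0.0203 to 0.0413). With values centred within groups, the C1q pairs (r = 0.93 to 0.98), marco with each chain (0.89 to 0.97) and marco with grn2 (0.75) passed for r (adjusted exact permutation p = 0.00625 to 0.0375). In the same test c1qb with grn2 (0.77) and lgals3bpb with c1qa (0.72) did not (adjusted exact permutation p = 0.133 and 0.154), while spi1b with grn2 did (0.69, adjusted exact permutation p = 0.0286). By rho of the centred values the C1q pairs and marco with each chain passed (adjusted exact permutation p = 0.00833 to 0.0208). By that measure marco with grn2 and spi1b with grn2 did not (rho = 0.78 for both, adjusted exact permutation p = 0.103 and 0.0661). In contrast mfap4 had r between -0.21 and 0.34 with every other gene. All genes of a tumour share its library and scaling.

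**Figure D4:**
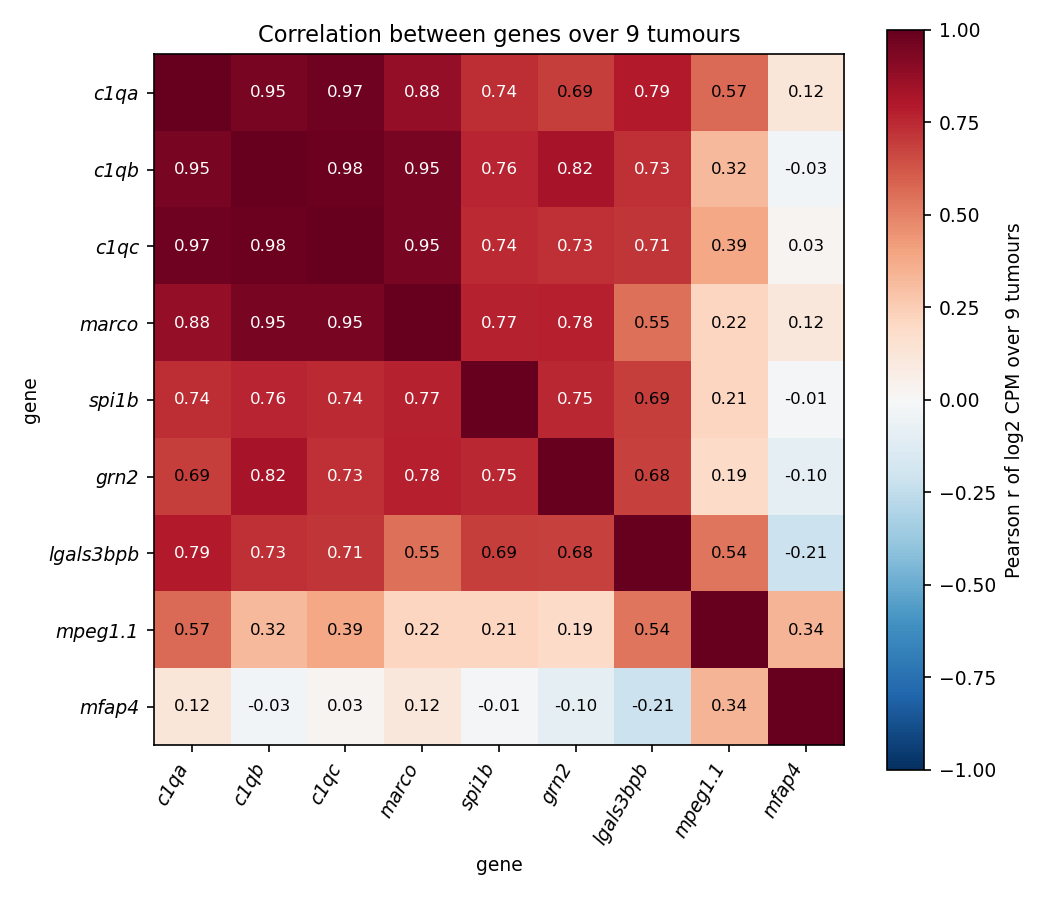
Pearson r of log2 CPM over the 9 tumours for each pair of genes other than grn1, coloured from blue (-1) to red (1), with each gene against itself on the diagonal. The C1q chains and marco form a block at 0.88 to 0.98, and spi1b and grn2 follow at 0.69 to 0.82. The gene lgals3bpb is at 0.71 to 0.79 with the C1q chains and at 0.55 with marco. With the other genes shown, mpeg1.1 is at 0.19 to 0.57 and mfap4 at -0.21 to 0.34.

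Genes elsewhere in the table with the pattern most like that of the C1q chains (mean log2 CPM) were tlr2, the receptor for bacterial lipoproteins (r = 0.97), pik3r5, the adaptor of a leukocyte phosphoinositide kinase (0.96), pld3, a lysosomal nuclease (0.96), arpc1b, a subunit of the actin-branching complex (0.96), and cd74b, the invariant chain of MHC class II (0.95). Those most like mpeg1.1 were the transcription factor glis2a (0.99), the methyl-DNA-binding protein mbd2 (0.94), the transcription factor creb3l3l (0.93), the tetraspanin tspan33a (0.92) and the G protein subunit gnai2a (0.91). For the mean of the granulins they were grnas (0.99), dennd2db (0.96), the matrix protein fbln2 (0.95), the kinase mapk6 (0.92) and the tubulin cofactor tbca (0.91). That mean takes in grn1, whose levels fall in separate clusters and weigh heavily in it. The row grnas overlaps both granulins and may share their reads. Each r is a description over 9 tumours, taken from the top of 12538 genes. No edgeR adjusted p of these genes was below 0.636. Counting error is large where reads were few, as for fbln2 (7 to 22 reads) and dennd2db (9 to 31). It is also large in the lowest tumours of tlr2 (3 reads in R860Q R159) and tspan33a (4 in EGFP R162).

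Ratios within a tumour, which hardly depend on the scaling of libraries, compare the genes with mpeg1.1 directly. The log2 ratio of summed C1q reads to mpeg1.1 reads was 2.52, 2.102, 1.78, 3.12 and 4.02 in R860Q R157 to R161 and 4.58, 2.24, 2.89 and 2.76 in EGFP R162 to R165. It was highest in EGFP R162 and R860Q R161, the tumours with the least mpeg1.1. The groups differed by -0.41 (two-sided exact permutation p = 0.524), and by 0.082 without EGFP R162. For the summed granulins over mpeg1.1 the ratio was -0.62, -1.96, -1.66, -0.85 and 0.07 in R860Q R157 to R161 and 3.80, 0.72, 2.74 and -1.55 in EGFP R162 to R165. The mean difference was -2.43 (two-sided exact permutation p = 0.0714, 0.107 adjusted over 3 ratios). Without EGFP R165, the EGFP tumour with little grn1, it was -3.43 (exact permutation p = 0.0179, the lowest value possible with 5 and 3 tumours). This leaves out the EGFP tumour that lay among the R860Q tumours, and nothing is drawn from that p.

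The log2 ratio of grn1 to grn2 was between -4.37 and -3.35 in the R860Q tumours, 1.302, 3.21 and 0.74 in EGFP R162, R163 and R164, and -4.89 in EGFP R165. EGFP R162, R163 and R164 thus had more reads of grn1 than of grn2 (not corrected for transcript length), and EGFP R165 far fewer, as in the R860Q tumours. The group difference was -4.06 (two-sided exact permutation p = 0.0556, 0.107 adjusted over 3 ratios). It was -5.72 without EGFP R165 (exact permutation p = 0.0179, again the lowest possible), and nothing is drawn from that p either.

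**Figure D5:**
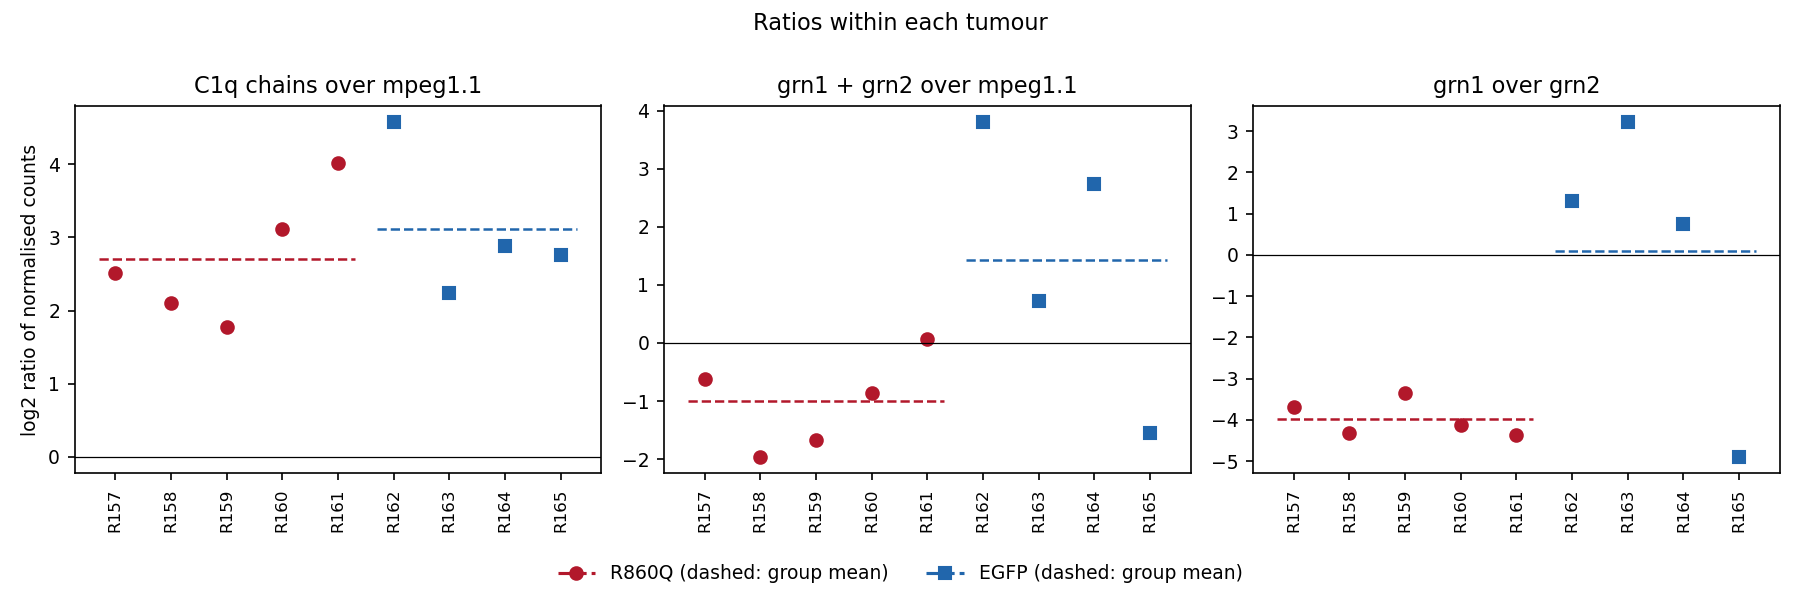
Log2 ratios of normalised counts in each tumour, for the summed C1q chains over mpeg1.1, the summed granulins over mpeg1.1 and grn1 over grn2, with R860Q as red circles, EGFP as blue squares and dashed lines at the group means. The C1q ratio overlaps between the groups, and EGFP R165 lies below the R860Q mean in both granulin ratios.

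Other genes of the same cells and pathways are given beside the 52.8% of all genes that lay on the lower side, and edgeR called 0 of them over all genes. These lists, and those of other cell types below, were chosen with earlier results of these data known. Their counts beside all genes are description only. Of 38 tested macrophage and phagocyte genes, 32 had a log2 fold change below 0 (median -0.71). Of these, 10 were at an unadjusted p under 0.05, beside 4.15% of all genes. Of the 6 on the higher side 1 was, beside 302 of all 15169 genes tested. The count on the lower side was 3 without EGFP R165, 4 without EGFP R164 and 5 without R860Q R158, R159 or R160. It was 15 without EGFP R163 and 17 without R860Q R161. The share of all genes in those fits is not given here, so these counts are not set against it. The activation marker cd83 was at 5.89 ± 0.691 CPM in R860Q and 17.5 ± 7.65 CPM in EGFP tumours (SD, n = 5 and 4; log2 fold change -1.57 ± 0.35 SE, edgeR adjusted p = 0.496, DESeq2 adjusted p = 0.0228). Next by p-value were the galectin lgals9l1 (-2.38 ± 0.68), irf8 (-1.04 ± 0.35) and the mannose receptor mrc1a (-1.37 ± 0.50), which endothelial cells of zebrafish also express. The receptor csf1ra went the other way, at 148 ± 110 CPM in R860Q and 87.0 ± 22.5 CPM in EGFP tumours (0.77 ± 0.56 SE, edgeR adjusted p = 0.938), with 318 CPM in R860Q R159, and it is expressed by yellow pigment cells too.

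Among 23 myeloid transcription factors 15 were on the lower side (median -0.35), and 13 without EGFP R165 (median -0.08), with irf8 followed by ikzf1 (-1.50 ± 0.56), cebpb (-0.74 ± 0.30) and spi1a (-0.94 ± 0.40), the second PU.1 gene of zebrafish. Of 16 growth factor, chemokine and receptor genes 11 were on that side (median -0.46), and 9 without EGFP R165 (median -0.08). The lowest p-values there were those of csf2rb, a shared cytokine receptor subunit (-1.64 ± 0.47), the chemokine cxcl11.1 (-1.51 ± 0.68), tgfb1a (-0.64 ± 0.30) and cxcl12a (-1.37 ± 0.76). None of these 8 genes had an edgeR adjusted p under 0.680 or a DESeq2 adjusted p under 0.106. For all genes, the share on the lower side and the median without EGFP R165 are not given here. The counts and medians from that fit are thus not set against them.

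Complement beyond C1q was thinly covered, with 12 of 50 listed genes tested and c1r, which codes for the protease that C1q activates, without a read in any tumour under that name. Of the 12, 7 were on the lower side (median -0.41), and without EGFP R165 the median turned to 0.12, with 6 of 12 on that side. The integrin subunit itgb2, part of a complement receptor, stood at -1.40 ± 0.54, and the inhibitor cfh at 1.88 ± 1.15. The protease cfd (-1.26 ± 0.81) and the membrane inhibitor cd59 (-1.17 ± 0.80) followed. Of the lists given so far, progranulin partners and lysosome genes lay nearest to 0, with 22 of 35 on the lower side and a median of -0.16. Without EGFP R165 that median turned to 0.012, with 17 of 35 on the lower side. Here laptm5 (-1.11 ± 0.48), mcoln1a (-0.74 ± 0.35), tnfrsf1a (-0.48 ± 0.25) and tfeb (-0.42 ± 0.26) had the lowest p-values. These 8 genes had edgeR adjusted p between 0.759 and 0.931. As above, the counts and medians without EGFP R165 are not set against those of all genes.

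Markers of other leukocytes were measured beside these genes, and 4.15% of all genes were lower at an unadjusted p under 0.05. Of 15 tested neutrophil markers 11 were on the lower side, 3 of them at an unadjusted p under 0.05 (median -0.45, and -0.19 without EGFP R165, summed level 516 to 1111 CPM in R860Q and 524 to 1639 CPM in EGFP tumours), and of the defining ones cpa5 was at 0 in EGFP R163. Of 9 T and NK lymphocyte markers 7 were on that side, 6 of them at an unadjusted p under 0.05 and 1 called by DESeq2 (median -1.60, 238 to 719 and 423 to 788 CPM), with cd8a at 0 in R860Q R161 and EGFP R162. All 5 tested B lymphocyte markers were, 3 of them at an unadjusted p under 0.05 (median -1.13, and -0.50 without EGFP R165, 28.3 to 51.9 and 24.7 to 145 CPM), with pax5 at 0 in R860Q R158 and R159 and EGFP R163, cd79b at 0 in R860Q R158, and ighz at 0 in R860Q R159, R860Q R161 and EGFP R164. With each tumour left out in turn, the number at an unadjusted p under 0.05 was 3 (without EGFP R165) to 6 for T and NK and 1 to 3 for B lymphocyte markers. The share of all genes in those fits is not given here. Melanocyte markers had a median of -0.13, 9 of 13 on the lower side (3215 to 15943 and 6133 to 12690 CPM), with no defining marker at 0. The part of these cells in the values of the 10 genes was not tested. Keratinocyte markers were all on the lower side as well (12 of 12, median -0.76, 371 to 1103 and 165.3 to 3032 CPM), and without EGFP R165 1 of 12 was, with a median of 0.37. Counts and medians without EGFP R165 are again not set against those of all genes. When a score of the muscle genes entered the fit, every one of the 10 genes kept its side. The values that moved by over 1.5 times were those of mpeg1.1 (-0.39), spi1b (-0.32) and mfap4 (0.54), and lgals3bpb was at -1.68.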

How the data were processed

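RNA of 9 zebrafish melanomas was depleted of ribosomal RNA and sequenced as random-primed libraries, per the labels' protocols. The deposited values are raw read counts per gene, made by the authors with Bowtie and HTSeq on danRer10 (GRCz10), per the submitters' processing notes. Versions and strand setting are not given in the sources used here. Groups follow the label for CDK13 status.

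The counts of all 30649 named rows were fitted in R 4.3.3 with edgeR 4.0.16 (TMM, robust quasi-likelihood test) after filterByExpr with a minimum count of 10 and a minimum total of 15. Adjusted p-values are Benjamini-Hochberg over the 15169 genes tested, with a threshold of 0.05. The value of grn1 is from a fit with no such filter. CPM use TMM library sizes. Log2 CPM and ratios add a prior count of 2, and ratios were compared by an exact two-sided permutation test. Correlations used exact permutations of the pairings. The script for the fit was tested on simulated data.

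Alternatives were DESeq2 1.42.0, limma 3.58.1 voom with sample weights, other normalisations and filters, no robust dispersion, a muscle score as covariate, another prior count, and each tumour left out. Named genes are the 10 genes, the 5 most correlated with each of 3 patterns, and the 4 lowest edgeR p-values in each of 5 pathway lists. Defining markers at 0 or beside summed levels, mpeg1.2, lgals3bpa, csf1ra, grna and grnb, and the genes most like grn1, stand outside that rule and were chosen after values were seen, as were the 36 pairwise correlations, the correlations centred within groups (permuted within each group) and the value of grn1 without the filter. The 10 genes and all lists were chosen with earlier results of these data known. Gene names and neighbours come from RefSeq's GRCz12tu, of which no coordinates were used. Intervals for counts of 0 cover counting error only.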

Additional observations from a re-analysis of the deposited data

Results flagged for a closer look

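In R860Q tumours mpeg1.1 was at 32.9 CPM in R158, with the other 4 between 18.6 and 22.1 CPM. The gap to the next tumour was large for the group's range by Dixon's criterion. It was 1 of 26 such checks over the 10 genes and 3 ratios in both groups, and chance flags about 1 in 20 of them. Without R158 the log2 fold change of mpeg1.1 was -0.91 instead of -0.75.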

How the results depend on the processing

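No paired analysis was possible because no replicate number occurs in both groups. DESeq2 called 68 genes over all genes and 1 of the 9 tested genes described here, where edgeR called 0. With each tumour left out in turn, edgeR called between 0 and 1 genes, and between 0 and 1 of these, the 1 being grn1 without EGFP R165, where it passes the filter only through the EGFP tumours in which it is high, so that this call carries no weight. The side of mfap4 turned with limma voom (-0.15), and ranged from -0.013 to 0.55 with a tumour left out. Leaving out a tumour gave -0.73 to 0.082 for the C1q to mpeg1.1 ratio, -3.43 to -1.64 for the granulin to mpeg1.1 ratio and -5.72 to -3.02 for the grn1 to grn2 ratio. A prior count of 0.5 gave the last a difference of -4.38 (exact permutation p = 0.0476, not adjusted over the 3 ratios). Without EGFP R164 and R165, r with mpeg1.1 was -0.47 for marco, -0.48 for lgals3bpb, -0.44 for spi1b, -0.45 for c1qa, -0.69 for c1qb, -0.52 for c1qc and -0.82 for grn2. None of these r passed (exact permutation p adjusted over 9 relations, 0.311 to 0.319). The cause of these differences was not tested. Of the recomputed values with a test, 213 kept their direction and their side of the threshold, 6 passed it only under the alternative and 10 changed direction. Those 6 include grn1 with DESeq2, and grn1 and both granulin ratios without EGFP R165, from which nothing is drawn. The p-values of ratios among them are not adjusted over the 3 ratios. Counting error is large for grn1 in the 6 tumours with 2 to 11 reads.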
